A study of Mus musculus with 9 samples.

Results

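The 8 genes described here encode the receptors and the main enzymes of the endocannabinoid system: Cnr1, Cnr2, Dagla, Daglb, Mgll, Faah, Napepld and Abhd6. They were chosen by name, and all 8 were found among the 52636 genes of the raw count table. RNA was sequenced from dissociated cells of the nucleus accumbens, a reward region of the ventral striatum, of male C57BL/6 mice. The cells were sorted with a fluorescent anti-ChAT antibody; ChAT synthesises acetylcholine and marks cholinergic interneurons. The first group, titled SUS, and the next, titled RES, had self-administered cocaine, at first under a fixed ratio 1 schedule with at most 40 infusions and then (1.2 mg/kg per infusion) in progressive ratio sessions of 23 h on 10 consecutive days, and their punches were collected 3 days after that. The third group was drug-naive and is called naive below. Each group has 3 libraries, and punches were pooled from 2 to 3 mice per condition. The labels do not say whether each library had its own pool, so the spread between libraries may be partly technical. The sample titles and the behavioural phenotype field name SUS and RES in opposite ways, so both groups are called by their titles, with no reading as to which mice were susceptible.

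Endocannabinoids are lipid messengers that a neuron or glial cell makes on demand from its membranes and that mostly travel backwards across the synapse, where they bind cannabinoid receptors and lower transmitter release. One of them, 2-arachidonoylglycerol (2-AG), is made by the diacylglycerol lipases Dagla and Daglb and broken down by monoacylglycerol lipase (Mgll) and Abhd6. The other main one, anandamide, can be released by Napepld, a phospholipase, and is broken down by the fatty acid amide hydrolase Faah. In the striatum this signalling acts on synapses onto medium spiny neurons, the projection neurons of the tissue, and takes part in drug reward.

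Total counts ran from 4471675 to 11155730 per library, and the 8 genes together took 164 to 273 CPM when scaled by library totals alone. TMM scaling factors, which correct for RNA composition, ran from 0.743 to 1.58, highest in RES replicate 3. Levels are given as counts per kb of merged exons divided by the same density over 1134 protein-coding olfactory receptor genes, which the brain largely does not express; this quotient is called times background. Of 40 autosomal genes restricted to other tissues, 3 averaged more than 3 times background, against 5757 of 21883 protein-coding nuclear genes, and the median of the 40 stood at 1.64 to 2.24 times background over the 9 libraries. A gene below that range, here called the floor, was thus not above the tissue-restricted genes, which does not show that it was silent. The means of the 40 genes had a median of 1.94 times background, beside 1.97 for all protein-coding nuclear genes. Markers of the sorted cell type were at this floor. Of 10 cholinergic markers, 0 averaged more than 3 times background, and the list had a median of 0.909 to 1.59 over the libraries, with the choline transporter Slc5a7 at 0.800 to 1.46. Chat itself was highest in SUS replicate 2, at 7.86, and lowest in SUS replicate 3, at 0.877. Of the markers of other cells, 10 of 12 for medium spiny neurons, 7 of 9 for astrocytes and 12 of 12 for microglia averaged more than 3 times background. The same held for 8 of 10 markers of oligodendrocytes and precursors, 5 of 9 of other interneurons, 4 of 8 of endothelial and mural cells, 1 of 10 of border and blood macrophages and other leukocytes, 0 of 7 of glutamatergic neurons and 0 of 5 of red blood cells. In such bulk samples, fewer cells of a type and less RNA per cell cannot be told apart.

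The enzymes that make and break down 2-AG had means above the floor, and both receptors and both anandamide enzymes did not. Averaged over the 9 libraries, Mgll stood at 4.41 ± 1.94 times background (SD, n = 9), Abhd6 at 4.30 ± 0.639, Dagla at 3.91 ± 1.16 and Daglb at 2.62 ± 0.796. Below them came Faah at 1.47 ± 0.236, Cnr1 at 1.37 ± 0.349, Cnr2 at 1.18 ± 0.138 and Napepld at 1.17 ± 0.318. Of the 40 tissue-restricted genes, 40 lay below Mgll and Abhd6, 39 below Dagla, 32 below Daglb, 10 below Faah and Cnr1 and 6 below Cnr2 and Napepld. Among all protein-coding nuclear genes these means lay from percentile 23.1 for Napepld to percentile 87.4 for Mgll. The order was set on the means of these same 9 libraries, so the gaps between neighbours are described without a test. Daglb was above Faah in 9 of 9 libraries (mean log2 ratio 0.79, SD 0.49) and Dagla above Daglb in 7 of 9 (0.58, SD 0.54). In the other 5 pairs of neighbours the mean log2 ratio was between -0.07 and 0.18, smaller than its SD in each, and the upper gene was higher in 5 to 7 of the 9 libraries. The order rests on the gene lengths. With the longest annotated coding transcript in place of merged exons, Daglb stood at 5.28 and Faah at 2.95 times background, which put Daglb between Mgll (5.49) and Abhd6 (4.47).

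**Figure D1:**
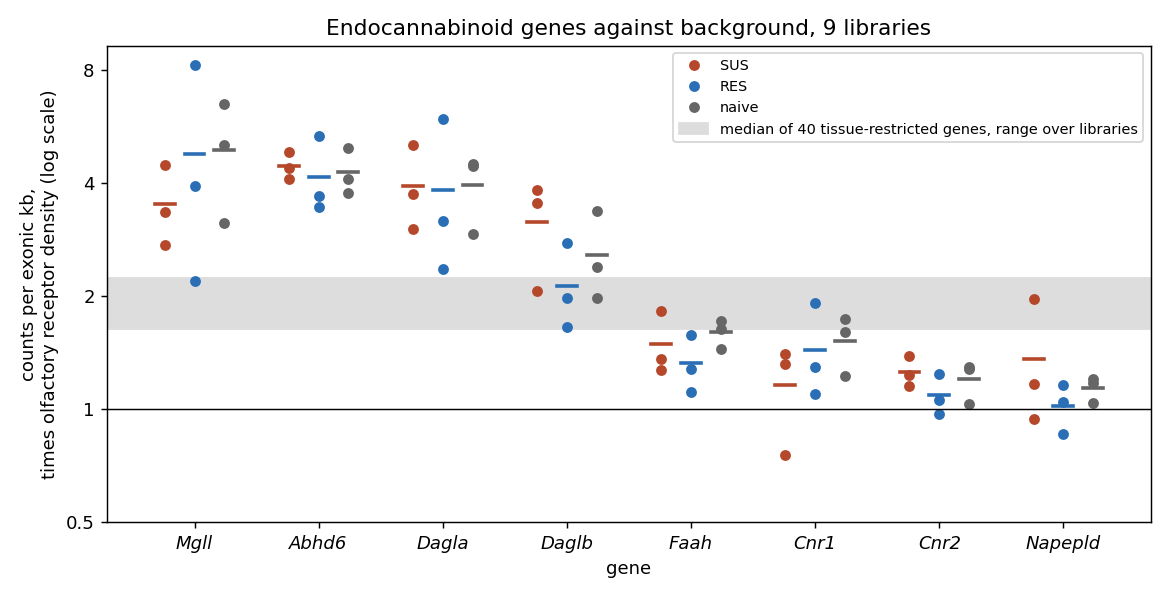
Level of each gene in each library, as counts per exonic kb divided by the olfactory receptor density, on a log scale; points are libraries, short bars are group means, and the grey band is the range over libraries of the median of 40 tissue-restricted genes. Mgll, Abhd6 and Dagla lie mostly above the band (means of 4.41, 4.30 and 3.91), while Faah, Cnr1, Cnr2 and Napepld lie in or below it.

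Cnr1 (ENSMUSG00000044288, chromosome 4, 33924593 to 33948831, plus strand, GRCm38) encodes the CB1 receptor, the main cannabinoid receptor of brain synapses. Its levels in SUS replicates 1, 2 and 3 were 1.32, 1.40 and 0.756 times background, beside 1.10, 1.92 and 1.30 in RES and 1.23, 1.61 and 1.74 in naive. These values rest on 63 to 237 counts per library. The ranges of the 3 groups overlap, and in each of the 9 libraries Cnr1 was below the median of the tissue-restricted genes. Of those 40 genes, 10 had a lower mean than Cnr1, so its transcript was not set apart from the tissue-restricted genes in these libraries. Its Poisson counting interval lay above the olfactory receptor density in 7 of the 9 libraries. In SUS replicate 3 it lay below that density, at 0.609 to 0.929 times background. In RES replicate 1 it spanned that density, at 0.881 to 1.35. Such intervals lay above it in 8 libraries for Faah, 2 for Cnr2 and 1 for Napepld. They cover counting error only.

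Cnr2 (ENSMUSG00000062585, chromosome 4, 135895394 to 135920207, plus strand) encodes the CB2 receptor, best known from immune cells including microglia. Its level was 1.38, 1.23 and 1.16 times background in SUS, 1.06, 0.973 and 1.24 in RES and 1.03, 1.28 and 1.29 in naive, on 31 to 109 counts. The gene stayed at the floor in all 9 libraries, below the tissue-restricted median in each. Microglial markers differed widely among the same libraries, with a list median of 68.4 times background in SUS replicate 3 and 1.98 in RES replicate 2, where Cnr2 was at 1.16 and 0.973.

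The promoter windows of the receptors are shown here because both genes lay at the floor with unlike sequence, and those of Daglb and Mgll because these enzymes varied most among the 2-AG enzymes. Windows of 250 bases upstream of the annotated start came from RefSeq on GRCm38.p6 and were matched for 7 of the 8 genes, all but Dagla. For a gene with several starts the most upstream one was taken. All are written 5′ to 3′ on the plus strand with each CG dinucleotide in capitals. They lie at chr4:33924014-33924263 for Cnr1, chr4:135894939-135895188 for Cnr2, chr5:143464243-143464492 for Daglb and chr6:88724162-88724411 for Mgll.
Cnr1: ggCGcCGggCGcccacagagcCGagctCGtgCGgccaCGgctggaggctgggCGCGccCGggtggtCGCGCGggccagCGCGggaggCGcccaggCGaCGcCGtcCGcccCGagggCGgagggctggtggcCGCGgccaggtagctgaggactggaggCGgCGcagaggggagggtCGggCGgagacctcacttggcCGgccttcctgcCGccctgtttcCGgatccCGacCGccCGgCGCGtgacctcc
Cnr2: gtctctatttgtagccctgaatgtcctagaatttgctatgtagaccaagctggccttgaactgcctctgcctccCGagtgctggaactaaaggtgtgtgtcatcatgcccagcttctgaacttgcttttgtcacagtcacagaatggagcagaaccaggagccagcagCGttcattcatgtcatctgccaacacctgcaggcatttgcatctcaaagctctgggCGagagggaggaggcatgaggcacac
Daglb: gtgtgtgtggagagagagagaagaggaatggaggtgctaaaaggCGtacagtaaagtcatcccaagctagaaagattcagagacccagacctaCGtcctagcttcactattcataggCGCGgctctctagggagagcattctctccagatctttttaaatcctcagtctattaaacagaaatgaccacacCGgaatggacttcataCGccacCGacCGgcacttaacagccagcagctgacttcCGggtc
Mgll: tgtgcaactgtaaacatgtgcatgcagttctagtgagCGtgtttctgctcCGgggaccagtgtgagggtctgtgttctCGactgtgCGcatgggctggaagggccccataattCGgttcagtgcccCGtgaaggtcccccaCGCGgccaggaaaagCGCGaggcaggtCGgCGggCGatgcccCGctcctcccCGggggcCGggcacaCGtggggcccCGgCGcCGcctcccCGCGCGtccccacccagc
The Cnr1 window holds 36 CG dinucleotides and the Cnr2 window 3, against a median of 6 over 32851 RefSeq windows of the same length. CG was counted 9 times in the windows of Daglb and Faah, 18 times for Abhd6, 21 times for Napepld and 23 times for Mgll. The E-box CACGTG, which reads the same on both strands and holds 1 CG, was found in the Mgll window and in 6.02% of all windows. The motif GAGGAA, a core of sites bound by the factor PU.1, searched on both strands, was found in the Daglb window and in 23.3% of all windows. These matches describe the sequence only.

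Dagla (ENSMUSG00000035735, chromosome 19, 10245265 to 10304877, minus strand) encodes the lipase that makes most 2-AG at adult synapses. It was at 3.76, 5.05 and 3.02 times background in SUS, at 3.18, 5.94 and 2.37 in RES and at 2.93, 4.44 and 4.50 in naive. The highest library of each cocaine group was replicate 2 and the lowest replicate 3, and the ranges of the 3 groups overlap. Medium spiny neuron markers had their highest list medians, 9.62 and 8.97 times background, in the same SUS replicate 2 and RES replicate 2, and their lowest, 2.81 and 2.65, in SUS replicate 3 and RES replicate 3.

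Mgll (ENSMUSG00000033174, chromosome 6, 88724412 to 88828360, plus strand) encodes the enzyme that hydrolyses most brain 2-AG and is found in neurons and astrocytes. Its level was 4.47, 3.36 and 2.74 times background in SUS, 3.93, 8.25 and 2.19 in RES and 3.14, 5.06 and 6.51 in naive. RES replicate 2 and naive replicate 3 were highest, and the RES libraries alone spanned the whole range seen. The list of 9 astrocyte markers was also highest in these libraries, with medians of 13.4 and 14.6 times background, and lowest in RES replicate 3 with 2.65. An antisense gene model, Gm26588, overlaps 3.29% of the Mgll exons.

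Daglb (ENSMUSG00000039206, chromosome 5, 143464584 to 143505942, plus strand) encodes the second diacylglycerol lipase, known from microglia and macrophages. It was at 3.84, 2.06 and 3.55 times background in SUS, at 1.98, 2.77 and 1.66 in RES and at 2.40, 3.37 and 1.98 in naive. The 3 libraries above 3 times background, SUS replicates 1 and 3 and naive replicate 2, were also the 3 with the highest microglial medians of 61.1, 68.4 and 50.4. RES replicate 2 had the next highest Daglb level and the lowest microglial median of the 9. Exons of Rac1, a gene on the opposite strand, overlap 24.1% of the Daglb exons, and the strand setting of the counting is not given in the sources used here, so reads of Daglb and Rac1 may not be cleanly separated. Rac1 was at 10.1, 3.83 and 9.98 times background in SUS, 5.46, 4.84 and 1.86 in RES and 4.73, 9.27 and 4.59 in naive, and thus was highest in the same 3 libraries.

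Abhd6 (ENSMUSG00000025277, chromosome 14, 8002902 to 8056763, plus strand) encodes a membrane enzyme that takes a smaller share of 2-AG breakdown. It was the steadiest of the enzymes above the floor, at 4.40, 4.10 and 4.85 times background in SUS, 3.46, 5.34 and 3.70 in RES and 4.12, 3.76 and 4.97 in naive. The standard deviation of its log2 CPM over the 9 libraries was 0.19, against 0.48 for Mgll, 0.40 for Daglb and 0.30 for Dagla.

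Of the anandamide enzymes, Faah (ENSMUSG00000034171, chromosome 4, 115967145 to 116017926, minus strand) was at 1.36, 1.83 and 1.27 times background in SUS, 1.11, 1.58 and 1.28 in RES and 1.45, 1.64 and 1.72 in naive. Napepld (ENSMUSG00000044968, chromosome 5, 21662901 to 21701396, minus strand) was at 1.17, 0.944 and 1.96 in SUS, 1.16, 1.04 and 0.861 in RES and 1.18, 1.04 and 1.21 in naive. Faah was below the tissue-restricted median in all 9 libraries and Napepld in 8, with merged exon lengths. On the length of its longest coding transcript Faah averaged 2.95 times background. The tissue-restricted median was not computed on that length, so whether Faah would then leave the floor is not shown. The exception for Napepld was SUS replicate 3, with 145 counts and a 95% Poisson interval of 1.66 to 2.31 times background, which covers counting error only. The tissue-restricted median of that library, 1.72 times background, lay inside this interval.

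Across the 9 libraries Mgll had its highest Pearson r with the astrocyte markers and Dagla with the medium spiny neuron markers. On log2 CPM, Mgll and the mean of 9 astrocyte markers had Pearson r = 0.961 (exact permutation p = 0.000218, adjusted p = 0.0174 over 80 relations of 8 genes with 10 marker lists) and Spearman rho = 0.917 (exact permutation p = 0.00131, adjusted p = 0.0972). Without RES replicate 2 and naive replicate 3, the libraries farthest from the median on the marker axis, r was 0.888. Dagla and 12 medium spiny neuron markers had r = 0.903 (exact permutation p = 0.00128, adjusted p = 0.0340) and rho = 0.867 (exact permutation p = 0.00451, adjusted p = 0.0972), and r was 0.899 without SUS replicate 3 and RES replicate 3. Neither rho passed after adjustment. Each point shares its library and scaling factor between both axes, and with library totals in place of the scaling r was 0.942 for Mgll and 0.828 for Dagla. Dagla was not tied to 1 list alone. It had r = 0.722 with the astrocyte markers (exact permutation p = 0.0283, adjusted p = 0.185). Its rho with markers of macrophages and other leukocytes was -0.850 (exact permutation, adjusted p = 0.0972). With library totals its r with microglial markers was -0.856. The third relation with an adjusted p under 0.05 joined Napepld, at the floor, to markers of macrophages and other leukocytes (r = 0.900, exact permutation p = 0.000865, adjusted p = 0.0340). Without SUS replicate 3 and RES replicate 2 this r was 0.624, and with library totals it was 0.899. Spearman rho was 0.850 (exact permutation p = 0.00607, adjusted p = 0.0972), which did not pass after adjustment either. Microglial markers split the libraries into a low and a high set, so a pooled r for Daglb compares these sets more than single libraries. It was 0.837 (exact permutation p = 0.00722, adjusted p = 0.112), or 0.904 without RES replicates 2 and 3. Daglb also had r = 0.780 with markers of oligodendrocytes and precursors (exact permutation, adjusted p = 0.125). With those of other interneurons r was -0.874 (exact permutation, adjusted p = 0.0554). With library totals these r of Daglb were 0.517 for microglia, 0.465 for oligodendrocytes and precursors and -0.068 for other interneurons, so they depended on the scaling. No relation of Daglb passed after adjustment. Within a group, 3 libraries were too few for these relations.

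**Figure D2:**
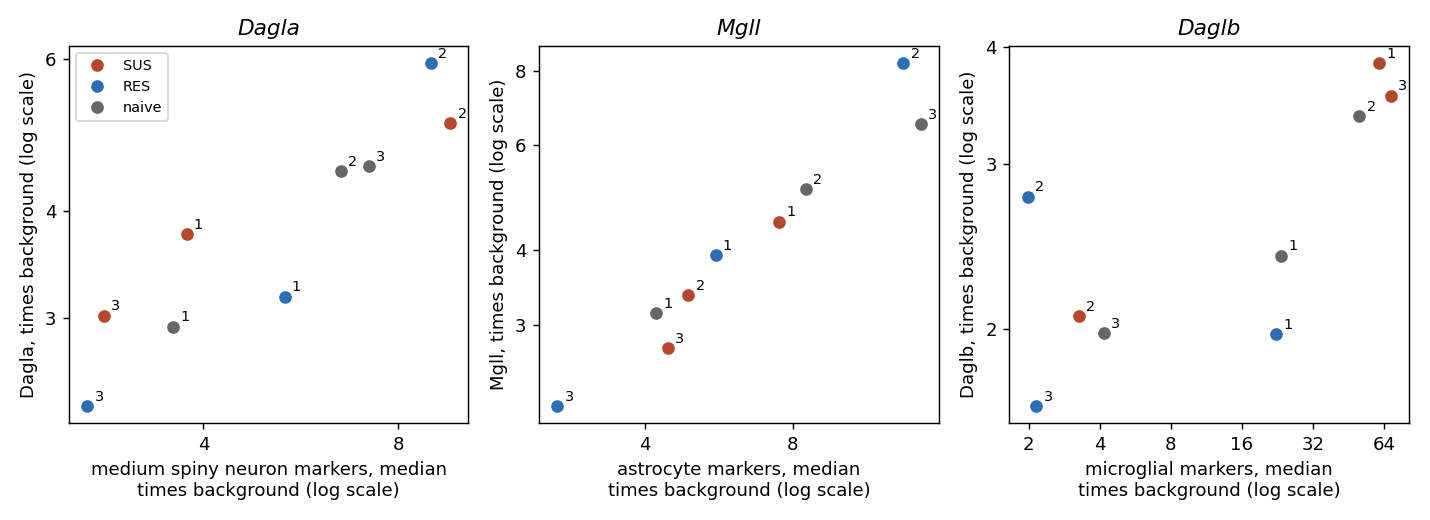
Level of Dagla, Mgll and Daglb in each library (times background, log scale) against the median level of the markers of medium spiny neurons, astrocytes and microglia in the same library (times background, log scale); numbers are replicates. Mgll ranges from 2.19 in RES replicate 3, where the astrocyte median is 2.65, to 8.25 in RES replicate 2, where it is 13.4.

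By the rule of likeness, the genes closest to each member that averaged over 3 times background were named by Pearson correlation of log2 CPM over the 9 libraries, among 5308 protein-coding genes of at least 10 CPM and over 3 times background, as a description. Closest to Mgll were Luzp2 (r = 0.989), Pla2g7 (0.986) and Htra1 (0.967). Those closest to Dagla were Pi4ka (0.983), Agrn (0.982) and Depdc5 (0.978). The pattern of Abhd6 was less closely matched, with Phf11a (0.884), Dhrs2 (0.876) and Cyp2j8 (0.849). Such values are the highest of 5308 over 9 points that share library depth.

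The comparison of RES with naive libraries addressed how mice of one cocaine-taking group differed from mice without the drug. None of the 8 genes passed the edgeR quasi-likelihood test (Benjamini-Hochberg adjusted p = 1.00 for each), and 0 had an unadjusted p under 0.05. Across all genes 0% of 39210 were called and 0.921% had an unadjusted p under 0.05. With DESeq2, and with limma-voom using sample weights, 0 of the 8 and 0 of all genes were called as well. All 8 log2 fold changes were below 0, from -0.24 for Daglb (-0.07 without naive replicate 2) to -0.03 for Abhd6, with a median of -0.06 beside -0.02 over all genes tested, of which 52.6% were below 0 and 47.4% above. These signs depended on the scaling, as all 8 were above 0 with library totals, which moved the median of all genes to 0.23. Faah averaged 21.2 ± 1.87 CPM in RES and 24.9 ± 1.41 CPM in naive (SD, n = 3 each), a log2 fold change of -0.23 (SE 0.223), which was -0.15 without RES replicate 1. It was the 1 of 8 whose libraries did not overlap between the groups in this direction, as was the case for 2.82% of all genes, while 0 of 8 were higher without overlap, against 3.31% of all genes. With merged exon lengths its level was at the floor in both groups.

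Set against naive, the SUS libraries gave 5 of the 8 genes higher and 3 lower, against 52.2% and 47.8% of all genes, with a median log2 fold change of 0.07 beside 0.02 over all genes. Again 0 of the 8 passed in edgeR (adjusted p = 1.00 for each), DESeq2 and limma-voom, 0 had an unadjusted p under 0.05 in edgeR, and 0% of all genes were called, with 3.12% at an unadjusted p under 0.05. Mgll averaged 36.5 ± 6.76 CPM in SUS and 48.9 ± 15.1 CPM in naive (log2 fold change -0.42, SE 0.359), and the value was -0.16 without naive replicate 3. The astrocyte markers summed to 1368 to 1878 CPM in SUS and 1117 to 3552 CPM in naive, and their part in this value was not tested. Daglb averaged 62.5 ± 20.3 CPM in SUS and 48.7 ± 11.1 CPM in naive (0.36, SE 0.311), which moved to 0.61 without SUS replicate 2, to 0.19 without SUS replicate 3 and to 0.20 without naive replicate 3. For Cnr1 the means were 15.2 ± 3.68 CPM in SUS and 19.4 ± 2.38 CPM in naive (-0.35, SE 0.240), or -0.17 without SUS replicate 3. Of the 8 genes, 0 had groups without overlap, against 3.85% higher and 4.15% lower of all genes.

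SUS and RES libraries were compared to ask how the groups that had both taken cocaine differed from each other. No gene passed in edgeR (0% of 39210 called, 5.68% at an unadjusted p under 0.05), DESeq2 or limma-voom. For the 8 genes, adjusted p ran from 0.875 to 0.992 in edgeR, and 0 had an unadjusted p under 0.05 in edgeR and DESeq2 and 1, Daglb, in limma-voom. Of all genes tested, 3734 were under this threshold in limma-voom and 2045 in DESeq2. Daglb had the largest difference, with 62.5 ± 20.3 CPM in SUS and 41.2 ± 4.65 CPM in RES (SD, n = 3 each), a log2 fold change of 0.60 (SE 0.312, edgeR unadjusted p = 0.0722, adjusted p = 0.875). Its libraries held 71.6, 39.2 and 76.7 CPM in SUS against 41.7, 45.5 and 36.3 CPM in RES, so SUS replicate 2 fell within the RES range. The value was 0.38 with library totals in place of TMM, and 0.85 without SUS replicate 2 (unadjusted p = 0.0160, edgeR adjusted p = 0.276). The 12 microglial markers all had means above 3 times background. They summed to 3649, 240 and 5015 CPM in SUS and 1509, 136 and 186 CPM in RES. Rac1, whose exons overlap those of Daglb, held 88.5, 34.3 and 101 CPM in SUS and 54.2, 37.4 and 19.1 CPM in RES. The part of microglia or of Rac1 reads in the Daglb value was not tested. Napepld averaged 11.3 ± 5.44 CPM in SUS and 8.35 ± 1.61 CPM in RES (0.43, SE 0.306), which was -0.03 without SUS replicate 3 and 0.66 without SUS replicate 2. Mgll stood at 36.5 ± 6.76 CPM in SUS and 47.1 ± 23.4 CPM in RES (-0.36, SE 0.359) and was 0.06 without RES replicate 2 and -0.67 without RES replicate 3. In all, 6 of the 8 were higher, against 51.2% of all genes, with a median of 0.15 beside 0.01 over all genes. This count depended on the scaling, as 2 of the 8 were higher with library totals, which moved the median of all genes to -0.21. Of the 8, 0 had groups without overlap, against 3.41% higher and 4.22% lower of all genes.

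Taking the 6 cocaine libraries together against the 3 naive libraries narrowed the intervals without bringing a call. In edgeR 0 of the 8 genes passed (adjusted p = 1.00 for each), 0 had an unadjusted p under 0.05, and 0% of all genes were called, with 1.38% at an unadjusted p under 0.05; DESeq2 and limma-voom called 0 as well. Of the 8, 5 were higher and 3 lower, against 51.4% and 48.6% of all genes, and 0 had groups without overlap, against 0.617% higher and 0.553% lower of all genes. The log2 fold changes ran from -0.23 for Mgll (SE 0.310) to 0.11 for Napepld (SE 0.278). Mgll was at 0.03 without naive replicate 3, -0.43 without naive replicate 1, -0.44 without RES replicate 2 and -0.12 without RES replicate 3, and Napepld was at -0.13 without SUS replicate 3. For Abhd6, at 20.9 ± 2.73 CPM in cocaine (n = 6) and 20.2 ± 3.47 CPM in naive (n = 3), the range of 2 standard errors around the log2 fold change of 0.04 ran from -0.35 to 0.42. The same range for Dagla ran from -0.49 to 0.50 around 0.00. Such ranges are not limits of detection. Larger changes could also have been missed, because a call had to pass the adjustment over all genes tested. RES and SUS share the naive libraries in these comparisons.

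**Figure D3:**
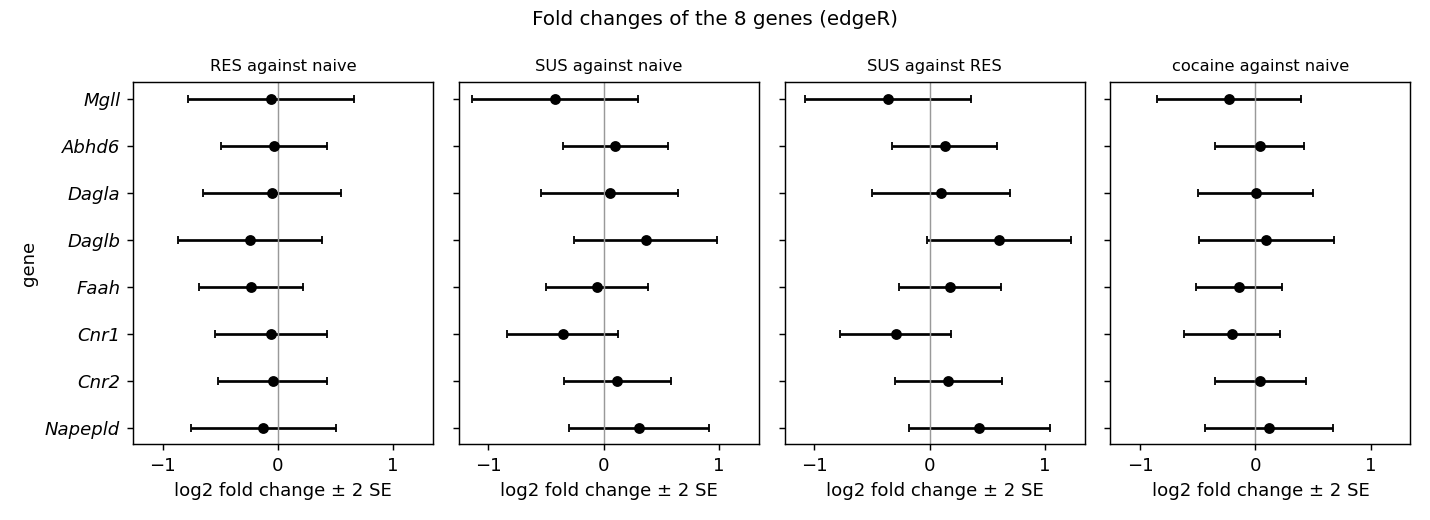
Log2 fold change of each gene in the 4 comparisons by edgeR, with bars of 2 standard errors; positive values are higher in the first-named group. All bars include 0, and the bar of Daglb for SUS against RES, at 0.60, comes closest to leaving it out.

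Ratios between enzymes within a library need no scaling between libraries. Dagla over Daglb, per exonic kb, was 0.977, 2.45 and 0.851 in SUS, 1.61, 2.14 and 1.43 in RES and 1.22, 1.32 and 2.27 in naive. With merged exons, Daglb exceeded Dagla in 2 of 9 libraries, SUS replicates 1 and 3. Rac1, whose exons overlap those of Daglb, was highest in the same libraries, at 10.1 and 9.98 times background. The part of Rac1 reads in this ratio was not tested. On the longest coding transcript of each gene the ratio was 0.485, 1.21 and 0.422 in SUS, 0.798, 1.06 and 0.710 in RES and 0.607, 0.653 and 1.13 in naive, so that Daglb exceeded Dagla in 6 of 9. Mgll over Abhd6, the ratio of the 2-AG hydrolases, was 1.02, 0.819 and 0.566 in SUS, 1.14, 1.55 and 0.593 in RES and 0.762, 1.35 and 1.31 in naive. The groups overlap in both ratios.

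**Figure D4:**
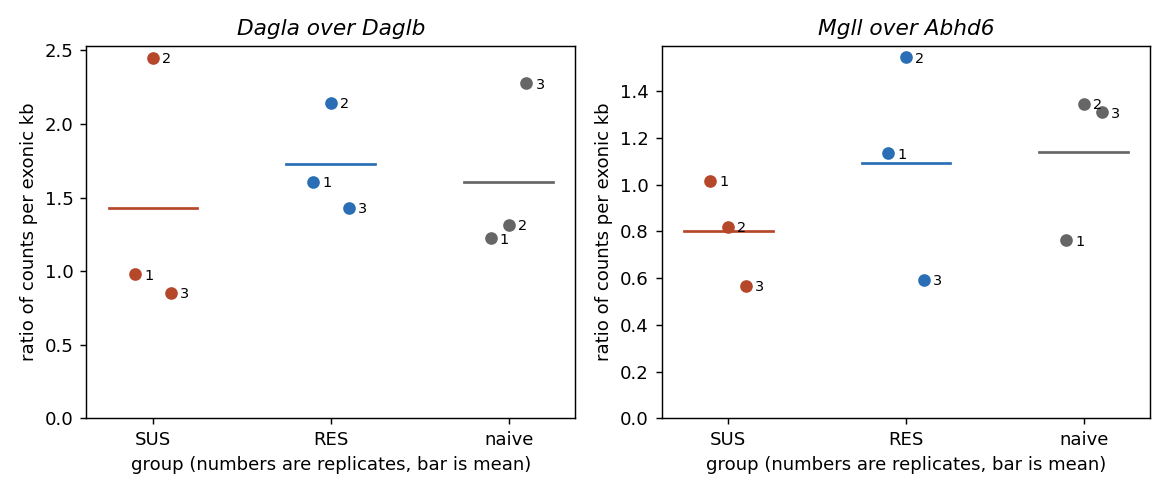
Ratio of counts per exonic kb of Dagla over Daglb and of Mgll over Abhd6 in each library; points are numbered by replicate and bars are group means. Dagla over Daglb averages 1.43 in SUS, 1.73 in RES and 1.61 in naive, with the SUS libraries spread from 0.851 to 2.45. Reads of Daglb and Rac1 may not be cleanly separated.

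The wider pathway was described by a list of 33 further genes. Of these, 18 averaged more than 3 times background. Among receptors and receptor partners this held for 1 of 8, Sgip1, a protein that binds CB1 and slows its uptake into the cell (4.30 times background), and Gpr55, Trpv1 and Ppara, other targets of these lipids, stood at 1.91, 2.01 and 1.84. Of the G proteins that CB1 couples to, all 4 were above it, led by Gnai2 (13.4) and Gnao1 (12.8). The receptor Grm5 and the phospholipase Plcb1, which supply diacylglycerol for 2-AG synthesis, were at 5.84 and 7.43 times background. Abhd12, a further 2-AG hydrolase of microglia, was at 13.4 times background, above each of the 8 genes.

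**Figure D5:**
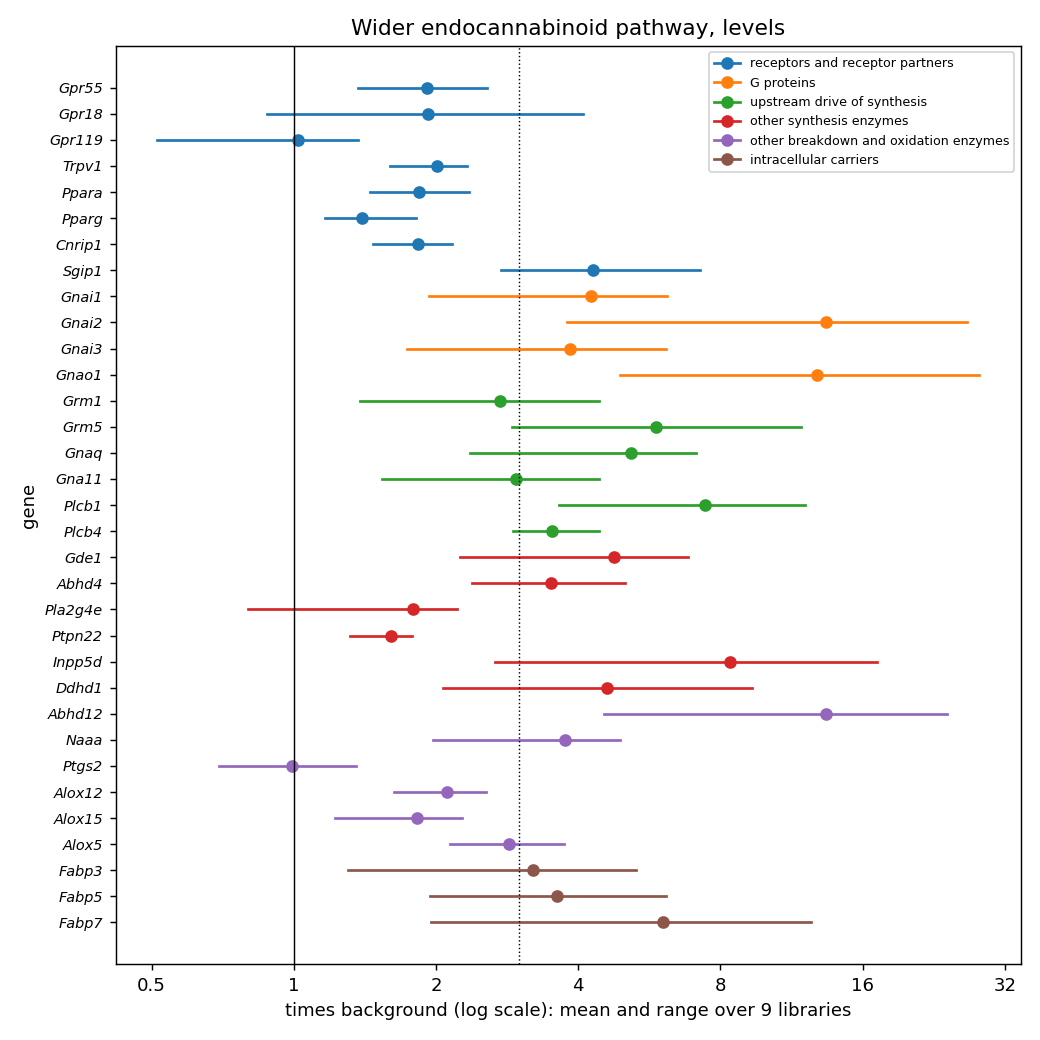
Levels of the 33 wider pathway genes, coloured by role, as the mean (point) and range (line) over 9 libraries in times background on a log scale; the solid line marks background and the dotted line 3 times background. Receptors and partners other than Sgip1 average below 3, while Gnai2, Abhd12 and Gnao1 average 13.4, 13.4 and 12.8.

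None of the 33 passed in any of the 4 comparisons in edgeR, DESeq2 or limma-voom. At an unadjusted p under 0.05, edgeR and DESeq2 each gave 4 of 33 for SUS against RES and limma-voom gave 3, against 5.68% of all 39210 genes in edgeR (2227), 2045 genes in DESeq2 and 3734 in limma-voom. In the other 3 comparisons edgeR and DESeq2 gave 0 and limma-voom 1, for SUS against naive, where limma-voom gave 3225 of all genes tested. By count, 14 were higher and 19 lower in RES against naive (median log2 fold change -0.06), 16 and 17 in SUS against naive (-0.01), 19 and 14 in SUS against RES (0.08) and 16 and 17 in cocaine against naive (-0.01). Over all genes the share that was higher was 47.4%, 52.2%, 51.2% and 51.4% in these comparisons. Inpp5d, a phosphatase of blood cells and microglia linked to an alternative route to anandamide, averaged 200 ± 129 CPM in SUS and 59.3 ± 32.8 CPM in RES (log2 fold change 1.75, SE 0.622, edgeR adjusted p = 0.870). Abhd12 averaged 102 ± 47.2 CPM in SUS and 48.8 ± 22.0 CPM in RES (1.06, SE 0.444, edgeR adjusted p = 0.870), and the G protein subunit Gnai3 32.6 ± 11.7 CPM in SUS and 19.6 ± 5.94 CPM in RES (0.74, SE 0.310, or 0.44 without SUS replicate 3). Inpp5d held 252, 53.5 and 295 CPM in the SUS libraries and 96.6, 34.8 and 46.6 CPM in the RES libraries, within each group in the order of the microglial sums given above; the part of microglia in these values was not tested. Against naive, the smallest unadjusted p-values for RES were those of Inpp5d (-1.15, SE 0.613), Abhd12 (-0.70, SE 0.443) and the lipoxygenase Alox15 (0.39, SE 0.260). Inpp5d was at -0.62 and Abhd12 at -0.37 without naive replicate 2, and Abhd12 was at -1.09 without RES replicate 1 and -0.43 without RES replicate 3. For SUS against naive they were those of the receptor Gpr119 (0.57, SE 0.325), Gnai3 (0.44, SE 0.307) and the cyclooxygenase Ptgs2 (0.37, SE 0.263), of which Gpr119 and Ptgs2 were at 1.02 and 0.990 times background. Gpr119 was at 0.31 without naive replicate 1, Gnai3 at 0.27 without naive replicate 1 and 0.13 without SUS replicate 3, and Ptgs2 at 0.16 without SUS replicate 3. For cocaine against naive they were those of Gpr119 (0.42, SE 0.289), which was 0.17 without naive replicate 1, the fatty acid binding protein Fabp7 (-0.52, SE 0.373), which was 0.07 without naive replicate 3 and -0.84 without naive replicate 1, and the CB1 partner Cnrip1 (0.22, SE 0.196).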

How the data were processed

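The authors deposited raw counts per Ensembl gene for 9 libraries. FastQC, STAR 2.5.2b, HTSeq, DESeq, DESeq2 and GRCm38 are named without roles, per the submitters' processing notes; the annotation release and the strand setting of the counting are not given in the sources used here. Without strand, reads that fall where exons of different genes overlap cannot be assigned to a single gene. Gene symbols and merged exon lengths came from GENCODE mouse release M21 (GRCm38), which matched 52489 of 52636 IDs. Genes with enough counts (filterByExpr, minimum 10) left 39210, all 8 genes among them. Counts were scaled by TMM and tested with edgeR 4.0.16 (quasi-likelihood F test, 1 model of 3 groups, and a 2-group model for cocaine against naive), with Benjamini-Hochberg adjustment over all genes at 0.05. DESeq2 1.42.0, limma-voom (limma 3.58.1), other scalings and filters and leaving out each library were alternatives. CPM are TMM-scaled, except the summed share of the 8 genes, which uses library totals. The scripts were tested on simulated data. The 8 genes, the wider list, the markers and the rules were chosen with earlier results of these data known. Named wider genes are the 3 with the smallest unadjusted p per comparison. Counting intervals are 95% Poisson intervals and cover counting error only. With 3 libraries per group and 31 to 700 counts per gene, precision is low.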

Additional observations from a re-analysis of the deposited data

Results flagged for a closer look

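Cnr2 in RES replicate 2 stood apart from the other 5 cocaine libraries. Its gap to the nearest library was 0.626 of the whole range of log2 CPM, just above Dixon's critical value of 0.625 for 6 samples. The library held 31 counts of Cnr2 and 6.66 CPM. Of the 8 genes tested this way this was the 1 flag, and chance flags about 1 group in 20.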

How the results depend on the processing

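Of 580 alternative values of the 8 genes' log2 fold changes, 0 passed the adjusted threshold, 61 changed sign, and the smallest adjusted p was 0.276 (edgeR). Across all genes, each of edgeR, DESeq2 and limma-voom called 0 in each comparison. At an unadjusted p under 0.05 the RES and naive contrast held 361 genes in edgeR, 317 in DESeq2 and 1671 in limma-voom. With SUS in place of RES these tools gave 1225, 1094 and 3225 genes. The contrast of SUS with RES held 2227, 2045 and 3734, and that of all cocaine libraries with naive 541, 628 and 1697. Library totals in place of TMM moved the median of all genes to 0.23 in RES over naive, to -0.21 in SUS over RES and to 0.14 in cocaine over naive. They gave 1 called gene in SUS over RES, none of the 8. In RES over naive they gave Cnr1 0.22, Cnr2 0.25, Dagla 0.17, Daglb 0.025, Mgll 0.11, Faah 0.048, Napepld 0.085 and Abhd6 0.22. In SUS over RES they gave Cnr2 -0.11, Dagla -0.068, Faah -0.072 and Abhd6 -0.11, and in cocaine over naive Faah 0.012. Scaling on genes above 3 times background alone, chosen after seeing the data, gave Dagla 0.13, Mgll 0.065 and Abhd6 0.20 in RES over naive, and Dagla -0.063 and Abhd6 -0.11 in SUS over RES. A minimum of 10 counts in every library gave Cnr2 0.00083 in RES over naive. Limma-voom gave Dagla -0.021 in SUS over naive and, in cocaine over naive, Cnr2 -0.0098, Daglb -0.038, Napepld -0.051 and Abhd6 -0.050. The cause of these sign changes was not tested.

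Leaving out 1 library at a time gave these ranges where the sign changed. In RES over naive they were -0.14 to 0.073 for Abhd6, -0.14 to 0.071 for Cnr1, -0.24 to 0.14 for Cnr2, -0.31 to 0.15 for Dagla and -0.48 to 0.24 for Mgll. In SUS over naive they were -0.044 to 0.20 for Abhd6, -0.14 to 0.16 for Dagla, -0.21 to 0.024 for Faah and -0.16 to 0.53 for Napepld. In SUS over RES they were -0.010 to 0.21 for Abhd6, -0.028 to 0.36 for Cnr2, -0.096 to 0.36 for Dagla, -0.67 to 0.060 for Mgll and -0.027 to 0.66 for Napepld. In cocaine over naive they were -0.082 to 0.14 for Abhd6, -0.0086 to 0.13 for Cnr2, -0.12 to 0.10 for Dagla, -0.072 to 0.26 for Daglb, -0.84 to 0.073 for Fabp7, -0.44 to 0.032 for Mgll and -0.13 to 0.20 for Napepld.

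Whether the replicate numbers pair the libraries was not settled. Deviations of same-numbered libraries correlated at -0.17 to 0.17, but differently numbered libraries were not set beside them. With the number as a replicate block edgeR called 0 genes in each comparison, and Dagla changed sign in cocaine over naive, at -0.033. Levels near the floor, few counts and 3 libraries per group limit what could be detected.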
